A study of Homo sapiens with 16 samples.

Results

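The genes of antigen presentation by MHC class II were followed through 10 probes of an immune panel of 594 genes: the classical chain genes HLA-DRA, HLA-DRB1, HLA-DRB3, HLA-DPA1, HLA-DPB1 and HLA-DQA1, the HLA-DM genes HLA-DMA and HLA-DMB, CD74, and the regulator CIITA. They were chosen by name, with earlier results of these data known. The cells were OCI-AML2, an established human acute myeloid leukaemia line, and the panel was the NanoString nCounter Human Immunology v2, which counts fluorescent barcodes hybridised to each RNA. PNPase and SUV3, which act together in the breakdown of mitochondrial RNA, were each knocked down with short hairpin RNA. The PNPase knockdown had replicates 545 and 1717 and the SUV3 knockdown had replicates 1595 and 1727. Each was sampled on days 3, 4, 5 and 6, which gave 8 samples per knockdown and 16 in all. Every sample carried a knockdown, no control cells were analysed here, and neither targeted gene is on the panel, so the knockdowns were not checked and each comparison sets 1 knockdown against the other. The replicates are called biological in the series' design text, and no source used here says what their numbers stand for.

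MHC class II molecules are pairs of an alpha and a beta chain that carry peptides from endosomes to the cell surface, where CD4 T cells read them. CD74, the invariant chain, holds new pairs and fills their groove until HLA-DM exchanges its remnant for peptide. CIITA is the master regulator that brings transcription to these genes through X and Y box elements in their promoters, and monocytic leukaemia cells are among the myeloid cells that can carry class II.

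The promoters of 7 of the 10 genes were matched by symbol in RefSeq for GRCh38.p14. The promoter set used here held no entry for HLA-DRA, HLA-DRB3 or CIITA. Of the 7, 5 are shown because they carry the arrangement described next or letters shared among the HLA genes. Each line gives the 150 bases before the annotated start, 5′ to 3′ on the gene's strand. Capitals mark an X box core (CCNAGNNA), a Y box core (ATTGG) or the letters TGATGATG, on either strand, with overlapping matches run together.

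HLA-DMA: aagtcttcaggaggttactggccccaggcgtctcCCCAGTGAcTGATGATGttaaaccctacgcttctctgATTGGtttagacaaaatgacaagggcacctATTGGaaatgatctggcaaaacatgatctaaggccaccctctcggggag
HLA-DPB1: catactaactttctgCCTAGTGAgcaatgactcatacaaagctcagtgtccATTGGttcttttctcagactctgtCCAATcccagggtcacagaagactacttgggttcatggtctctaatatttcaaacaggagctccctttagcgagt
HLA-DMB: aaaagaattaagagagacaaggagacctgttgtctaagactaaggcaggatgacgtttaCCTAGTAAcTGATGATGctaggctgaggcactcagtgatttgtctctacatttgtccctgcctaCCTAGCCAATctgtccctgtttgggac
HLA-DRB1: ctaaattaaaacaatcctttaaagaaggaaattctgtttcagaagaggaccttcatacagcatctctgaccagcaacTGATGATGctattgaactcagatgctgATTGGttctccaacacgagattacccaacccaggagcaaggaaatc
CD74: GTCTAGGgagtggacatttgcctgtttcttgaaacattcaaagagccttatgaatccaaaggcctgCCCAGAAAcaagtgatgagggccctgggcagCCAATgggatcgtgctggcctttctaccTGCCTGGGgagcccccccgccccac

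These windows lie at chr6:32953098-32953247 (minus strand) for HLA-DMA, chr6:33075840-33075989 (plus strand) for HLA-DPB1, chr6:32941029-32941178 (minus strand) for HLA-DMB, chr6:32589849-32589998 (minus strand) for HLA-DRB1 and chr5:150412911-150413060 (minus strand) for CD74. An X core followed on the same strand by a Y core after 15 to 45 bases stood in 3 of the 7 genes' promoters, read over 250 bases before to 50 bases after the start. HLA-DMA had its cores at -116 and -79 relative to the start with 29 bases between them, HLA-DPB1 had them at -135 and -99 with 28 bases between them, and CD74 had the arrangement on the opposite strand with 23 bases between the cores. The arrangement was in 1.53% of 35116 promoters of the same length, the X core alone in 49.7% and the Y core alone in 34.6%. TGATGATG, letters chosen after the sequences were seen, was in HLA-DMA at -107, HLA-DMB at -82 and HLA-DRB1 at -73, and in 0.940% of all promoters. Such matches describe letters only.

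The deposited values are whole numbers, a score of barcode signal that only a file's name describes as corrected for unwanted variation. Per sample, the genes summed to between 311396 and 493370. The 8 probes for negative control, which match no human RNA, averaged 6.80 with an SD of 3.05, and a gene was called above them where its mean passed their mean plus 2 SD, a level of 12.9. By that rule 354 of the 594 genes and 7 of the 10 class II pathway genes were above the negative controls. For comparisons each sample was scaled by the geometric mean of 15 housekeeping genes, whose factor spanned 2.03-fold, and taken as log2(value + 1), a scale that understates differences of weak genes. In a culture, fewer cells with a transcript and less of it per cell cannot be told apart. In the PNPase samples the spiked positive controls were 0.02 to 0.29 log2 units from their mean, against -0.26 to 0.01 in the SUV3 samples, without overlap.

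HLA-DRA, the alpha chain common to all HLA-DR molecules, was above the level of 12.9 in 16 of 16 samples. Its values on days 3 to 6 were 54, 56, 43 and 52 in PNPase replicate 545 and 61, 63, 30 and 33 in PNPase replicate 1717, against 169, 167, 113 and 95 in SUV3 replicate 1595 and 90, 135, 160 and 241 in SUV3 replicate 1727. Every PNPase sample lay below every SUV3 sample, both as deposited and after scaling.

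HLA-DPA1, the alpha chain of HLA-DP, was also above that level in 16 of 16 samples. It had 35, 31, 36 and 44 in PNPase replicate 545 and 22, 26, 17 and 20 in PNPase replicate 1717, against 58, 52, 53 and 37 in SUV3 replicate 1595 and 45, 71, 85 and 108 in SUV3 replicate 1727. Its groups overlapped in the deposited values, on day 6 of replicates 545 and 1595.

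HLA-DRB3, a second HLA-DR beta chain that only some haplotypes carry, passed the level in 15 samples. It had 23, 11, 23 and 25 in PNPase replicate 545 and 24, 26, 30 and 21 in PNPase replicate 1717, against 40, 40, 24 and 23 in SUV3 replicate 1595 and 45, 30, 59 and 63 in SUV3 replicate 1727. The groups overlapped, with days 5 and 6 of replicate 1595 and day 4 of replicate 1727 within the PNPase range. HLA-DRB1, the main HLA-DR beta chain, was nearest to the background of the 7, ranging from 7 to 17 in PNPase samples and from 10 to 24 in SUV3 samples, with 9 of 16 samples above the level. HLA-DRB1 and HLA-DRB3 are close paralogues, and no source used here gives the probe sequences, so their signals may be shared and their separate values are uncertain.

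The chains of HLA-DM were weak and similar in both knockdowns. HLA-DMA ranged from 12 to 24 in PNPase samples and from 13 to 32 in SUV3 samples, and HLA-DMB from 14 to 33 in PNPase samples and from 11 to 32 in SUV3 samples, each with 15 of 16 samples above the level. CD74 gave 1028, 927, 1020 and 1201 in PNPase replicate 545 and 843, 1074, 823 and 1014 in PNPase replicate 1717, against 713, 595, 653 and 657 in SUV3 replicate 1595 and 682, 873, 791 and 1075 in SUV3 replicate 1727. As deposited, all 4 values of replicate 1595 lay below every PNPase value, while those of replicate 1727 overlapped them. After scaling this order was gone: the SUV3 samples ran from 9.37 to 9.98 log2 units, within the PNPase range of 9.33 to 10.23.

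The other 3 genes were not above the negative controls. HLA-DPB1, the beta chain of HLA-DP, had a median of 4.0 with a range of 0 to 12 in PNPase samples and a median of 9.0 with a range of 4 to 17 in SUV3 samples. Its only samples past the level were 2 of SUV3 replicate 1727, at 17 on days 5 and 6. HLA-DQA1, the HLA-DQ alpha chain, ranged from 2 to 10 over all samples. CIITA ranged from 0 to 6 with a mean of 2.00, under the mean of the negative controls, so its level was not detectable with this panel and no direction is given for it. The plot of deposited values by day shows each gene against that background.

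**Figure D1:**
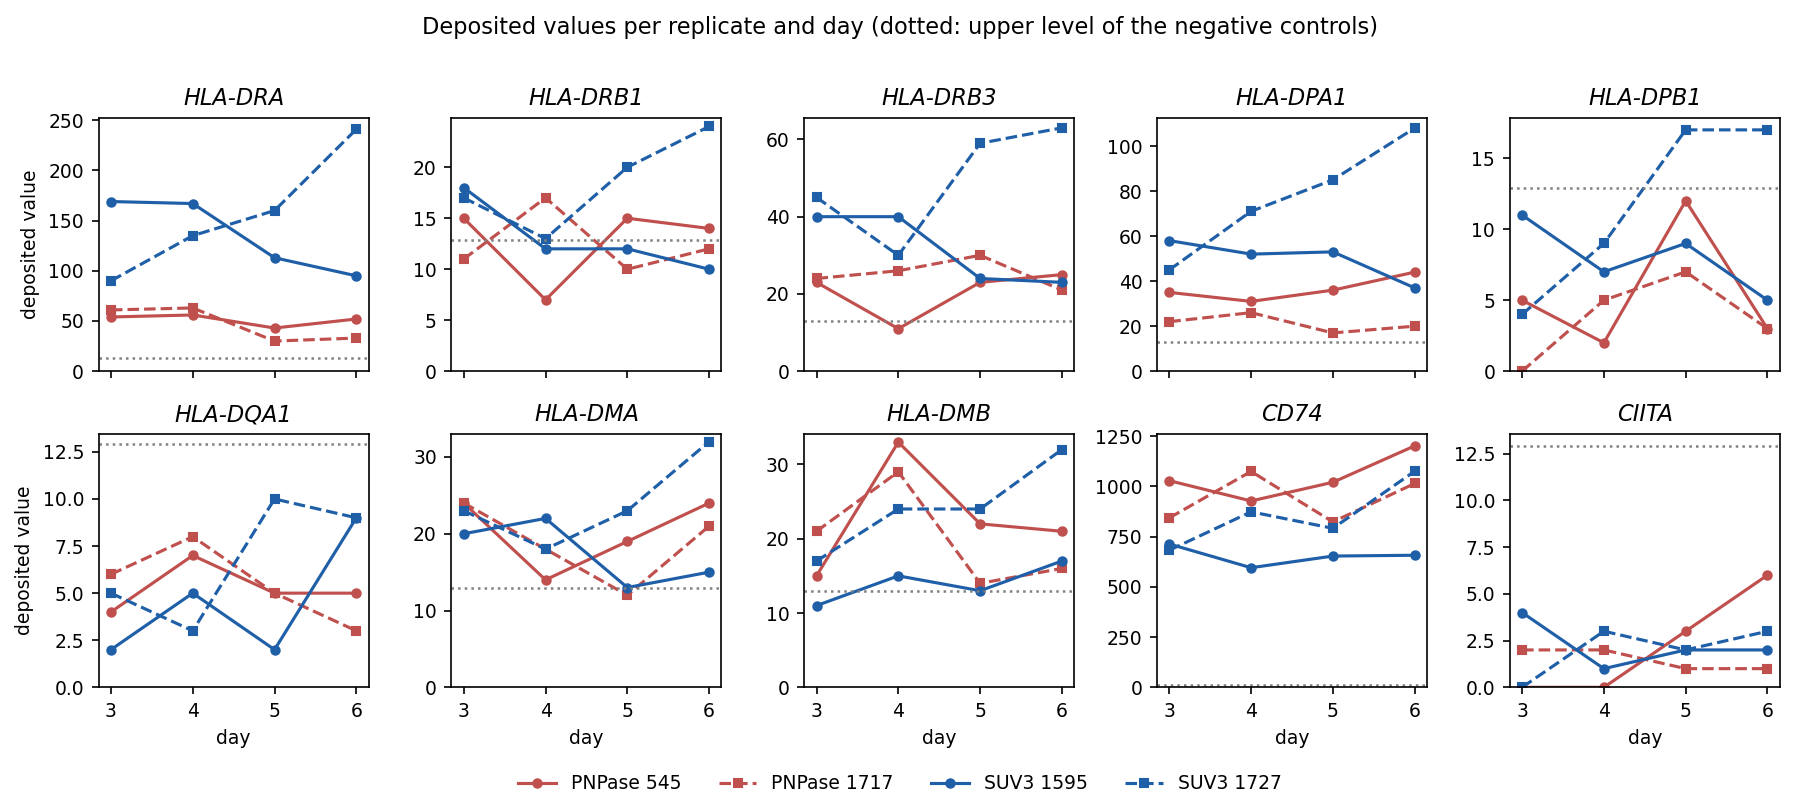
Deposited value (vertical axis, score units, a scale of its own in each panel) of the 10 genes against day for each replicate, PNPase in red and SUV3 in blue, with the upper level of the negative controls (12.9) dotted. HLA-DRA is the gene whose 8 PNPase values, 30 to 63, all lie below its 8 SUV3 values, 90 to 241; HLA-DQA1 and CIITA stay under the dotted line.

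With each replicate averaged over its days, HLA-DRA was lower after PNPase than after SUV3 knockdown, although no gene of the panel passed the test. Its scaled log2 mean was 5.45 ± 0.14 after PNPase knockdown and 7.28 ± 0.03 after SUV3 knockdown (SD, n = 2 each). The difference was -1.83 ± 0.22 (SE), 3.56-fold lower, with the smallest p of the panel and an adjusted p of 0.190 by limma with Benjamini-Hochberg adjustment over all 594 genes. The SD of 0.03 is that of day averages and hides SUV3 replicates that crossed. On day 3 HLA-DRA was at 7.91 in replicate 1595 and 6.77 in replicate 1727, and on day 6 at 6.59 and 7.82. At 2 replicates against 2, limma called 0 of 594 genes (0% of the panel), and 38 genes had an unadjusted p under 0.05. Of the 354 genes above the negative controls, HLA-DRA was among 17 (4.80%) whose PNPase samples all lay below all SUV3 samples after scaling, and among 2 (0.565%) that did so in the deposited values.

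HLA-DPA1 and HLA-DRB3 came next among the class II genes above the background. HLA-DPA1 averaged 4.69 ± 0.53 after PNPase knockdown and 6.09 ± 0.32 after SUV3 knockdown, a log2 difference of -1.39 ± 0.34 (SE, adjusted p = 0.666 by limma). HLA-DRB3 averaged 4.39 ± 0.24 after PNPase knockdown and 5.44 ± 0.35 after SUV3 knockdown, a difference of -1.05 ± 0.28 with the same adjusted p. Neither passed the threshold of 0.05. The difference was -0.57 ± 0.24 for HLA-DRB1, -0.37 ± 0.24 for HLA-DMA and -0.12 ± 0.29 for HLA-DMB, on the same log2 scale. For CD74 it was 0.10 ± 0.23, with a mean of 9.79 ± 0.11 after PNPase knockdown and 9.69 ± 0.18 after SUV3 knockdown.

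HLA-DPB1 had a fitted difference of -1.43 ± 0.31 (adjusted p = 0.666 by limma), from values under the level of 12.9 in all but 2 of 16 samples. Over all 10 genes the median fitted difference was -0.51, with 9 of them negative, beside -0.15 over the panel, where 406 of 594 were negative. HLA-DPB1, HLA-DQA1 and CIITA, which were not above the background, enter these counts, and nothing is read from their signs.

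Both PNPase replicate means lay below both SUV3 replicate means for HLA-DRA, HLA-DPA1, HLA-DRB3 and HLA-DMA, an order that 26.6% of the 354 genes above the negative controls had (30.0% of the panel). HLA-DRB1 had it too, but its mean value was 12.6 in PNPase samples and 15.8 in SUV3 samples, so it passed the level of 12.9 only through the knockdown in which it was higher. HLA-DMB and CD74 did not have it. The housekeeping scaling moves the median of all genes, which was 0.12 without scaling. HLA-DRA, HLA-DPA1 and HLA-DRB3 kept the order without scaling (8.47% of the 354 genes) and with the spiked positive controls as scaling (18.4%), which themselves differed between the knockdowns; HLA-DMA kept it under neither. The HLA-DRA difference was -1.53 without scaling and -1.82 with the positive controls.

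**Figure D2:**
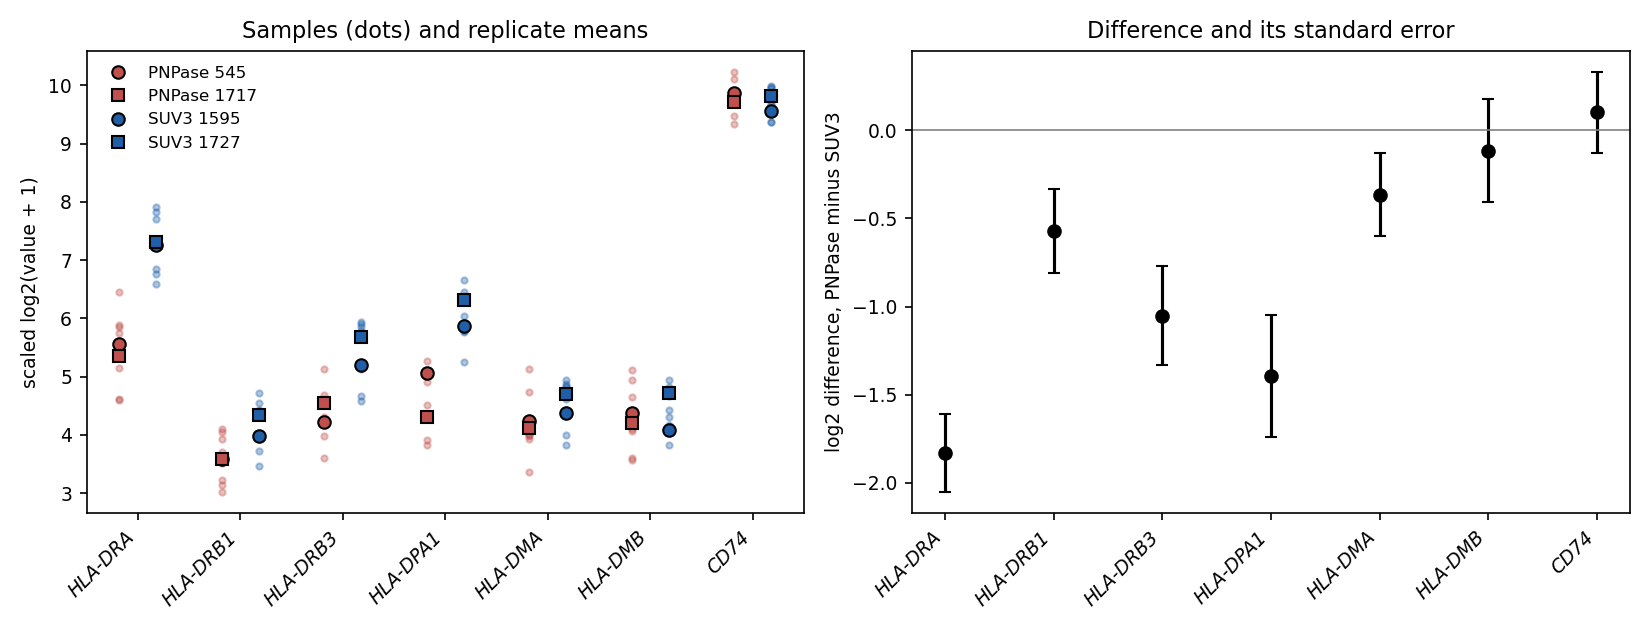
Left, housekeeping-scaled log2(value + 1) of the 7 genes above the negative controls in each sample (small dots) and as replicate means (large symbols), PNPase in red at the left of each pair and SUV3 in blue. Right, the log2 difference PNPase minus SUV3 with its SE (n = 2 replicates each), which is -1.83 for HLA-DRA and 0.10 for CD74.

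The invariant chain and the HLA-DR alpha chain therefore stood in different proportion in the 2 knockdowns, a measure within each sample in which the scaling largely cancels. The log2 of CD74 minus that of HLA-DRA was 3.77 to 4.88 in PNPase samples and 1.83 to 2.91 in SUV3 samples, and the groups did not overlap. Its replicate means averaged 4.34 ± 0.03 after PNPase knockdown and 2.41 ± 0.15 after SUV3 knockdown (SD, n = 2 each). An exact two-sided permutation test over replicates gave p = 0.333, the smallest that 2 against 2 allows. CD74 itself differed little between the knockdowns (0.10 ± 0.23), so this proportion largely restates the HLA-DRA difference and is no separate evidence. For the 2 alpha chains, HLA-DRA minus HLA-DPA1 was 0.23 to 1.44 in PNPase samples and 0.90 to 1.67 in SUV3 samples, with overlap. These ratios compare samples, since levels of different probes are not comparable with each other.

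Over days 3 to 6 the SUV3 replicates ran in opposite directions. After scaling, the slope of all 7 genes was negative in replicate 1595 and positive in replicate 1727, which held for 39.3% of the 354 genes above the negative controls. HLA-DRA had a slope of 0.32 log2 units per day in replicate 1727 and -0.48 in replicate 1595. From day 3 to day 6 that is a log2 difference of 1.05 in replicate 1727 (2.07-fold higher on day 6) and of -1.32 in replicate 1595 (2.49-fold lower). HLA-DPA1 had slopes of 0.27 in replicate 1727 and -0.36 in replicate 1595. The slopes of CD74 were smaller, at 0.06 in replicate 1727 and -0.20 in replicate 1595, and HLA-DMB was nearly level in replicate 1595, at -0.01.

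The difference between these slopes, 1727 minus 1595, was 0.80 ± 0.16 (SE) for HLA-DRA and 0.64 ± 0.12 for HLA-DPA1, which ranked 3 and 2 by p in the panel. Both had an adjusted p of 0.0788 by limma, so that 0 of 594 genes passed the threshold (0% of the panel), while 83 genes had an unadjusted p under 0.05. Both passed it when a pseudocount of 8 replaced 1 (adjusted p = 0.0311 each) and when only the 354 genes above the negative controls were tested (adjusted p = 0.0278 each). They were then 2 of 2 and 2 of 3 genes called. Neither passed under the other scalings, with the negative controls subtracted or without any 1 day, where the adjusted p was 0.128 to 0.465 for HLA-DRA and 0.143 to 0.464 for HLA-DPA1. HLA-DRB3 differed by 0.59 ± 0.23, HLA-DRB1 by 0.49 ± 0.20, HLA-DMA by 0.41 ± 0.25, CD74 by 0.26 ± 0.13 and HLA-DMB by 0.15 ± 0.22. The median of the 7 genes was 0.49, beside 0.12 over the 354 genes. This test compares 2 replicates of the same knockdown, not the 2 knockdowns, and its error is the scatter of single days about each line. It was chosen because opposite courses of HLA-DRA were already known from these data. Its p-values, ranks and calls are therefore no independent support for those courses. What the numbers of these replicates stand for is not known. Opposite signs were kept by 6 of the 7 genes, all but HLA-DMB, without scaling (19.5% of the 354 genes) and with the positive controls as scaling (24.9%). The slope in 1727 was above that in 1595 for all 7 genes under each scaling, and for 76.3% of the 354 genes with housekeeping scaling, 65.5% without scaling and 70.1% with the positive controls.

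Monocytic and myeloid markers are given beside these courses. In the SUV3 samples the summed scaled level of 9 monocytic and myeloid markers, 7 of them above the negative controls, was 22378, 14517, 38335 and 38258 on days 3 to 6 in replicate 1727 and 5257, 5645, 5187 and 5895 in replicate 1595. ITGAM, the integrin alpha M chain of myeloid cells, had a slope difference of 0.70 ± 0.20 (adjusted p = 0.191 by limma). All 7 markers above the negative controls had a positive slope difference, with a median of 0.40, and none passed the test. So did 76.3% of the 354 genes above the negative controls, whose median was 0.12. The sums rest mainly on S100A8 and S100A9, calcium-binding proteins abundant in myeloid cells, which averaged 12.93 and 13.99 log2 units in replicate 1727, against 10.69 and 11.29 in replicate 1595. CSF3R, the G-CSF receptor, was at 9.74 in replicate 1727 and at 9.73 in replicate 1595. The PNPase replicates also stood apart in the sum, with 4461 to 7436 in replicate 1717 and 12973 to 21632 in replicate 545. The part of these markers in the class II values was not tested. Of 8 B cell markers 4 were above the negative controls, with sums of 84.1 to 160 in PNPase samples and 89.4 to 158 in SUV3 samples, and of 5 dendritic cell markers 1 was, with sums of 39.3 to 64.4 in PNPase samples and 37.4 to 59.4 in SUV3 samples. Of 10 T cell and NK cell markers 2 were above the negative controls. The 10 summed to 529 to 675 in PNPase samples and to 416 to 690 in SUV3 samples. Neither stem cell marker, CD34 or KIT, was above the negative controls.

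After PNPase knockdown the class II genes had negative slopes in both replicates on the housekeeping-scaled values, for all 7 genes and for 54.2% of the 354 genes. This direction depended on the scaling: without scaling, or with the positive controls, only HLA-DRA of the 7 was negative in both replicates, beside 9.04% of the 354 genes without scaling and 7.63% with the positive controls. Its slope was -0.46 ± 0.15 log2 units per day (adjusted p = 0.107 by limma), -0.21 without scaling and -0.17 with the positive controls. CD74 had a slope of -0.19 ± 0.07 (adjusted p = 0.150) and HLA-DMB of -0.30 ± 0.12 (adjusted p = 0.153), and the CD74 slope had the opposite sign under both other scalings. None of the 10 genes passed, and 1 of the 594 did (0.168%), IL17A, which was singled out after its value was seen. IL17A was not among the 354 genes above the negative controls, of which 0 were called. The median slope of the 7 genes was -0.23, beside -0.10 over the panel. The slopes in replicate 1717 were the more negative ones, with a median of -0.40 over the 7 genes against -0.10 in replicate 545. For this difference, 1717 minus 545, limma called 0 of 594 genes (0%), with 41 at an unadjusted p under 0.05. HLA-DRA differed by -0.43 ± 0.16 and HLA-DPA1 by -0.33 ± 0.12 (adjusted p = 0.517 each).

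The slope over both SUV3 replicates averages these opposite courses. It was -0.08 ± 0.15 for HLA-DRA, -0.04 ± 0.12 for HLA-DPA1, -0.18 ± 0.14 for HLA-DRB3, -0.16 ± 0.12 for HLA-DRB1, -0.16 ± 0.13 for HLA-DMA, -0.07 ± 0.07 for CD74 and 0.07 ± 0.12 for HLA-DMB. None of the 10 genes was among the 10 of 594 called (1.68%). The SE and calls of the SUV3 slopes, the PNPase slopes and their difference take single days as the unit, not the replicates. The slopes of the PNPase and SUV3 knockdowns were not shown to differ for any class II gene. The difference PNPase minus SUV3 was -0.38 ± 0.21 for HLA-DRA (adjusted p = 0.866 by limma) and -0.37 ± 0.17 for HLA-DMB (adjusted p = 0.709). It had a median of -0.12 over the 7 genes and of -0.03 over the panel, and 0 of 594 genes were called (0%), with 39 at an unadjusted p under 0.05.

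**Figure D3:**
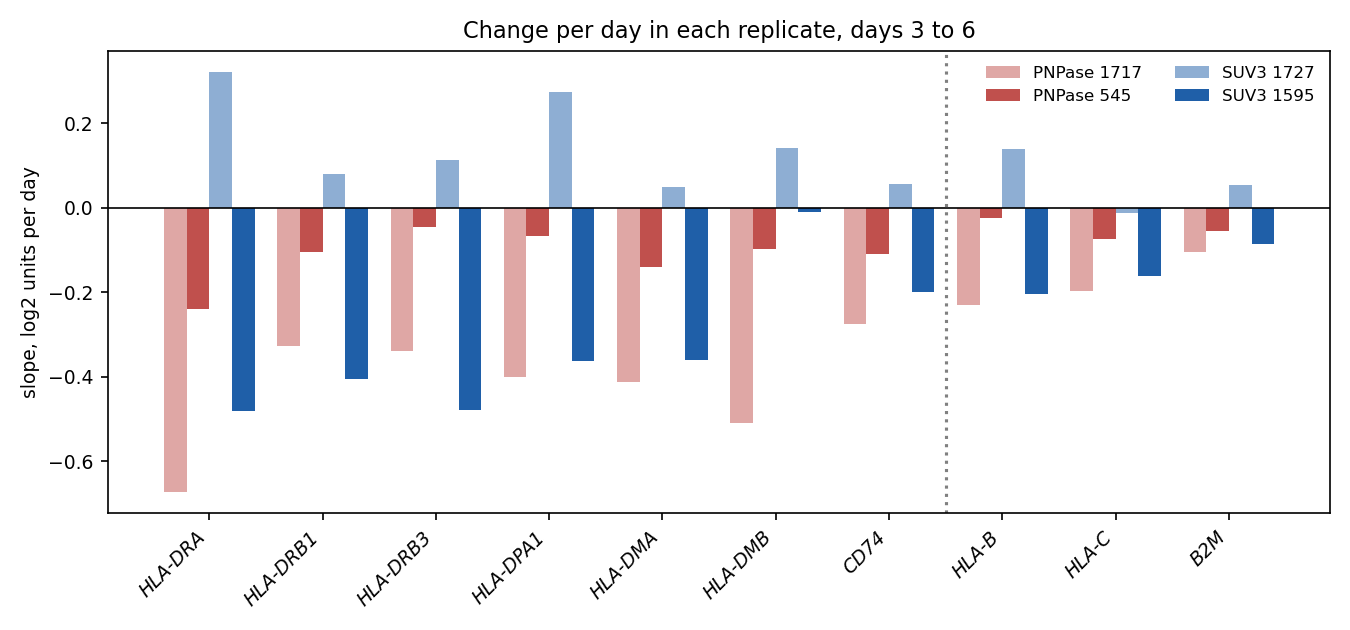
Slope of housekeeping-scaled log2(value + 1) per day over days 3 to 6 (vertical axis, log2 units per day) in each of the 4 replicates, for the 7 class II pathway genes above the negative controls and, right of the dotted line, HLA-B, HLA-C and B2M of MHC class I. Bars of SUV3 replicate 1727 (light blue) point up for all 7 class II genes, at 0.32 for HLA-DRA, where those of 1595 (dark blue) point down, at -0.48.

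Over all samples, the 4 classical chain genes above the negative controls correlated with each other more closely than with CD74 or HLA-DMB. HLA-DRA and HLA-DPA1 correlated with r = 0.94 over the 16 samples, and again 0.94 after each replicate was centred on its own mean. For HLA-DRA and CD74, r was 0.26 over all samples and 0.89 within replicates, so CD74 went along with HLA-DRA from day to day and not in the level between knockdowns. HLA-DRB1 and HLA-DRB3 had r = 0.89 over all samples. The lowest pair over all samples was CD74 with HLA-DRB3, at 0.20, and within replicates HLA-DMB with HLA-DRB3, at 0.08. These values are descriptions. The days of a replicate share their culture, and all genes of a sample share 1 housekeeping divisor.

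The genes most like the mean profile of the 7, among the other 347 genes above the negative controls, depended on whether levels or courses were compared. Over the 16 samples they were TNFSF13B, the B cell factor BAFF (r = 0.90), FCGR2A/C, low-affinity IgG receptors (0.90), the kinase MAP4K2 (0.87), the adhesion molecule CD58 (0.85) and the surface enzyme BST1 (0.85). With each replicate centred, HLA-B (0.97), IL10RA (0.94), TGFBI (0.92) and TNFSF13B (0.90) were among the closest 5. Without scaling, an alternative chosen after seeing the data, TGFBI was at 0.85, IL10RA at 0.83 and HLA-B at 0.74, which took ranks 1 to 3. Class I genes did not all go along. With centring and scaling, B2M, the light chain of class I, was at 0.80. The peptide transporter subunits TAP1 and TAP2 were at 0.38 and -0.60. Without scaling, B2M was at 0.28, TAP1 at -0.26 and TAP2 at -0.02.

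**Figure D4:**
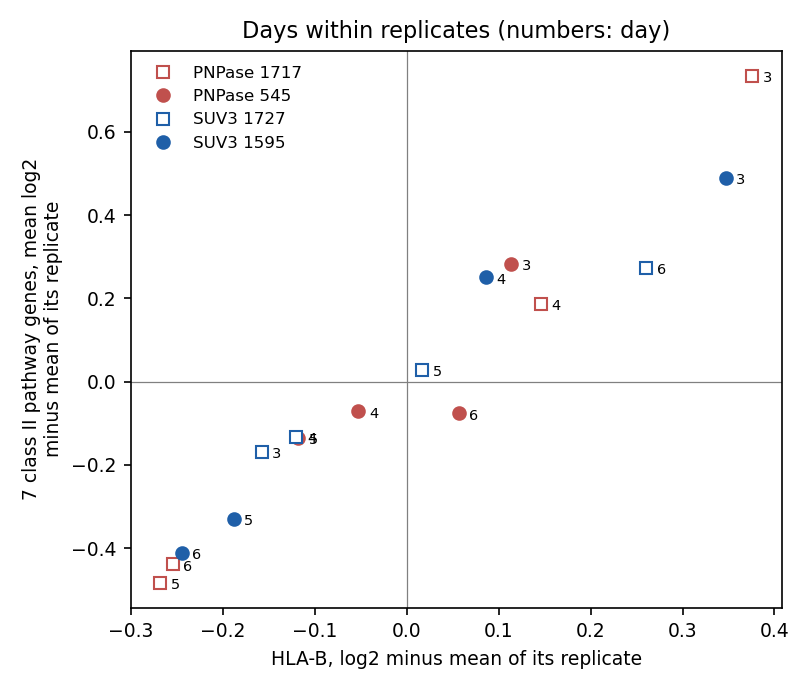
Mean scaled log2 value of the 7 class II pathway genes (vertical axis) against that of HLA-B (horizontal axis), each minus its mean in the same replicate, for 16 samples numbered by day. Replicate 1727 (open blue squares) runs upward to day 6, where replicate 1595 (filled blue circles) runs downward, and the points give r = 0.97, which is 0.74 without scaling.

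HLA-B, a class I heavy chain, had the same order of slopes, with 0.14 in replicate 1727 and -0.21 in replicate 1595, a difference of 0.34 ± 0.09 (adjusted p = 0.165 by limma). In level, MHC class I and its peptide supply had a median difference of 0.02 between PNPase and SUV3 knockdown over 9 genes, beside -0.15 over the panel.

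The other pathway genes had no call in any of the 6 comparisons. In antigen loading and processing, 5 of the 6 genes measured were above the negative controls. Their median difference PNPase minus SUV3 was -0.24, with -0.61 ± 0.21 for HLA-DQB1, the HLA-DQ beta chain (adjusted p = 0.710 by limma), and -0.24 ± 0.27 for HLA-DOB, a subunit of the HLA-DM modulator HLA-DO (adjusted p = 0.857). Among genes that act on CIITA, 10 of the 14 measured were above the negative controls, with a median of -0.19. TGFB1, a cytokine that lowers CIITA expression, had 0.65 ± 0.28 (adjusted p = 0.722 by limma), and JAK2, a kinase of the interferon gamma receptor, -0.30 ± 0.28 (adjusted p = 0.831). IFNG itself was not above the negative controls. Of the costimulatory genes, which give T cells their second signal, 7 of the 11 measured were above the negative controls, with a median of -0.25, and CD48 had 1.60 ± 0.49 and TNFSF4, the OX40 ligand, -0.81 ± 0.25 (adjusted p = 0.666 each).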

How the data were processed

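The samples were 16 hybridisations of total RNA from OCI-AML2 cells, 2 replicates of each knockdown on 4 days, placed in groups by the labels. The authors deposited whole-number values per probe, used here as a score, in 2 tables with identical values for all 594 genes; only a table's name speaks of removed unwanted variation, and their making is otherwise not stated. A correction of that kind can take out differences between samples, and its extent is not known. From these values each sample was divided by the geometric mean of 15 housekeeping genes, centred over samples, and log2(value + 1) was taken.

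Tests used limma 3.58.1 (lmFit, eBayes) in R 4.3.3 over all 594 genes, adjusted by Benjamini-Hochberg at a threshold of 0.05. They were also run on simulated data, where the planted changes were larger than those of HLA-DRA here. That run does not show how often changes of the HLA-DRA size would be called. Knockdowns were compared on replicate means over days (2 against 2), and slopes with replicate as a block. The days were taken from each replicate, per the design text, so a replicate's number links its days; deviations of the same replicate correlated at 0.43 to 0.87 between days for PNPase and at 0.63 to 0.89 for SUV3. Replicate contrasts used a line for each replicate. Tables and figures used Python 3.11.15, pandas 2.3.3, NumPy 2.4.6 and matplotlib 3.10.9.

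All 10 genes were named, with other pathway genes and markers as lists, of which the 3 genes with the smallest p were eligible for naming; likeness named genes among the 5 highest correlations. Some genes that these rules name are not reported here. Members, lists and the contrast of the SUV3 replicates were chosen with earlier results of these data known. Alternatives were other scalings, subtraction of the negative controls, a pseudocount of 8, a filter to 354 genes, other replicate blocks, and leaving out each replicate or day. The precision is limited by the negative controls for genes near 12.9.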

Additional observations from a re-analysis of the deposited data

How the results depend on the processing

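Of the class II calls, 3 counts depended on the setting. For PNPase minus SUV3, treating all 16 samples as independent (no replicate block) called 4 class II genes of 58 in the panel, and a random replicate block called 0 class II genes of 4 in the panel. For the slope difference of the SUV3 replicates, a pseudocount of 8 called 2 genes, both class II, and the filter to genes above the negative controls called 3, of which 2 were class II. The median difference between knockdowns of the 7 genes above the negative controls was -0.57 in the report. It was -0.29 without scaling and -1.05 with the negative controls subtracted. Each of these medians is the value of HLA-DRB1, whose mean deposited value was 12.6 in PNPase samples and 15.8 in SUV3 samples. HLA-DRB1 passed the upper level of the negative controls only through the SUV3 samples, in which it was higher. No direction between knockdowns is therefore read from this median. HLA-DRA kept its direction between knockdowns under every setting run, from -2.05 without day 3 to -1.53 without scaling, with adjusted p by limma from 0.000512 with no replicate block to 0.975 without PNPase replicate 1717.

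Counts over the panel moved more. For the SUV3 slope, 10 genes were called in the report, 21 with the filter, 4 with the negative controls subtracted and 0 with no replicate block, without scaling, with positive-control scaling and without day 3, 5 or 6. For the PNPase slope, 1 gene was called in the report, 13 with the filter, 120 without scaling, 156 with positive-control scaling, 7 with a random replicate block, 17 without day 4 and 0 without day 3, 5 or 6. For the slope difference between knockdowns, 1 gene was called with the filter, with the negative controls subtracted, under both other scalings and without day 3. The block changed no call of a class II gene's slope.

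Leaving out 1 replicate at a time gave 0 to 2 panel genes for the SUV3 slope, 0 to 10 for the PNPase slope and 0 to 1 for the slope difference. A lone replicate is then assumed to vary like the others. The SUV3 slope then ranged from -0.48 to 0.32 for HLA-DRA, -0.41 to 0.081 for HLA-DRB1, -0.48 to 0.11 for HLA-DRB3, -0.36 to 0.27 for HLA-DPA1, -0.36 to 0.05 for HLA-DMA, -0.0096 to 0.14 for HLA-DMB and -0.20 to 0.056 for CD74, and their median from -0.36 without 1727 to 0.11 without 1595. The slope difference between knockdowns ranged from -0.78 to 0.025 for HLA-DRA, -0.30 to 0.19 for HLA-DRB1, -0.31 to 0.29 for HLA-DRB3, -0.51 to 0.13 for HLA-DPA1, -0.33 to 0.085 for HLA-DMA and -0.25 to 0.0083 for CD74. The level difference ranged from -0.024 to 0.23 for CD74 and -0.43 to 0.20 for HLA-DMB.

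Several small slopes changed sign with the setting, none of them past the threshold. Without scaling, the PNPase slope was 0.0098 for HLA-DPA1, 0.018 for HLA-DRB1, 0.050 for HLA-DRB3 and 0.061 for CD74, the SUV3 slope was 0.072 for HLA-DRA, 0.080 for CD74 and 0.11 for HLA-DPA1, the slope difference was 0.036 for HLA-DRB1 and 0.082 for HLA-DRB3, and the level difference was 0.17 for HLA-DMB. With positive-control scaling, the PNPase slope was 0.043 for HLA-DPA1, 0.0495 for HLA-DRB1, 0.083 for HLA-DRB3 and 0.096 for CD74, the SUV3 slope was 0.049 for HLA-DRA, 0.0565 for CD74 and 0.083 for HLA-DPA1, and the slope difference was 0.030 for HLA-DMA, 0.040 for CD74, 0.089 for HLA-DRB1 and 0.14 for HLA-DRB3. With the negative controls subtracted, the slope difference of HLA-DRB3 was 6e-04. Without day 3, the SUV3 slope was -8e-04 for HLA-DMB and 0.0081 for HLA-DRB1, the PNPase slope was 0.042 for HLA-DRB3 and 0.073 for HLA-DMA, and the slope difference was 0.12 for HLA-DRB3 and 0.15 for HLA-DMA. Without day 6, the SUV3 slope of HLA-DPA1 was 0.016, the slope difference of HLA-DRB3 was 0.027 and the level difference of HLA-DMB was 0.087. The cause of these shifts was not tested; the median PNPase slope of all genes was -0.10 in the report, 0.13 without scaling and 0.17 with the positive controls. With 2 replicates per knockdown and values of HLA-DRB1, HLA-DMA and HLA-DMB near the negative controls, small differences could not be resolved.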
